A study of Homo sapiens with 3 samples.

Results

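The BCR-ABL1 segments of K562 cells are stretches of chromosomes 22 and 9 that the cells are known to carry rearranged and in extra copies. RBM17 eCLIP intervals were chosen by their position, as those lying wholly in chr22:21000000-23640000 or chr9:133600000-134110000 (hg19), on either strand. There were 808 of the 137095 clusters of replicate 1, 830 of the 119066 clusters of replicate 2 and 19 of the 866 peaks that the authors called reproducible. The segments themselves were selected on the positions of clusters in earlier results of these data, so the number and density of clusters in them are given as a description with no test. No measurement of DNA copies was analysed here, and the extra copies are background knowledge of this line.

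K562 is an established cell line from a chronic myelogenous leukemia, grown here without treatment. RBM17 was precipitated with a mixture of antibodies from crosslinked K562 cells in 2 eCLIP replicates, and the authors compared them with 1 size-matched input, taken from the same lysate before the washes. In eCLIP, ultraviolet light fixes a protein to the RNA it touches, and the RNA fragments that come down with the protein are sequenced, so a cluster is a short interval of transcript where these fragments pile up. Replicate 1 clusters come with their log2 fold relative to the input and its −log10 p but without read counts, so the depth is unknown. Replicate 2 clusters come with a gene and their reads but without a fold relative to the input.

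In the leukemia for which this line is a model, a break within BCR on chromosome 22 joins a break within ABL1 on chromosome 9. The joined gene is transcribed from the BCR promoter and encodes a tyrosine kinase that is always active. In K562 the joined gene is present in many copies with neighbouring DNA, which on chromosome 9 reaches into NUP214. RBM17 is a splicing factor associated with the U2 snRNP, and eCLIP of such a protein samples pre-mRNA, introns included, as well as mature RNA.

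The K562 fusion transcript is known to join exon 14 of BCR to exon 2 of ABL1. The edges of these exons are shown because they are where the RNA passes from one segment to the other. The last 30 bases of the BCR exon lie at chr22:23290384-23290413 and the first 30 bases of the ABL1 exon at chr9:130854064-130854093, both on the + strand of hg38 in GENCODE v44, and the capitals mark the 8 bases on each side of the join. These positions are in another build than the clusters and were not compared with them.
BCR exon 14 end: actcagccactggatttaagcaGAGTTCAA
ABL1 exon 2 start: AAGCCCTTcagcggccagtagcatctgact

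Clusters stopped in BCR and started in ABL1 at nearly the same place in both replicates. The last BCR cluster of replicate 1 lay at 23632617 to 23632670, with a log2 fold of 2.44, and the last of replicate 2 at 23632684 to 23632728, with 17 reads. On the + strand of chromosome 22 no further cluster followed for 501.1 kb in replicate 1 and for 590.4 kb in replicate 2. The first ABL1 cluster lay at 133607154 to 133607181 in replicate 1, with a log2 fold of -0.13, and at 133607159 to 133607187 in replicate 2, with 9 reads. The nearest cluster before it on that strand was 29.8 kb away in replicate 1 and 30.2 kb away in replicate 2, where it belonged to EXOSC2, a subunit of the RNA exosome. They were also, on either strand, the clusters of the segments nearest to these limits. The nearest clusters beyond the limits were at 23980957 to 23981023 on chromosome 22 (log2 fold 2.19 in replicate 1) and at 133577308 to 133577374 on chromosome 9 (log2 fold 1.19 in replicate 1). At the other limit of the chromosome 22 segment there was no such gap. Clusters of SMPD4P1, a pseudogene, lay on both sides, with log2 folds of 1.77 just inside and 0.19 just outside. Long gaps also lay inside the segments, so a gap alone does not mark a limit. Counted from the segment start, neither replicate had clusters from 1.92 to 2.52 Mb on chromosome 22 or from 0.18 to 0.39 Mb on chromosome 9.

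NUP214, a component of the nuclear pore, ended in a less even way. Its last replicate 2 cluster, at 134086638 to 134086673, held 8 reads, and the next cluster on the + strand followed after 184.6 kb. In replicate 1 the last cluster within the NUP214 span was at 134077370 to 134077407 (log2 fold 0.19). A single further cluster, at 134103173 to 134103225 with a log2 fold of 1.93, followed 25.8 kb later in replicate 1 and had no counterpart in replicate 2. XKR3, a gene on chromosome 22 outside the segments that is known to be joined to NUP214 in K562, held 16 clusters with 124 reads in replicate 2 and 10 clusters in replicate 1. The highest XKR3 cluster had 22 reads, and 0 of the 10 replicate 1 clusters passed a log2 fold of 3 with a −log10 p of 3.

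**Figure D1:**
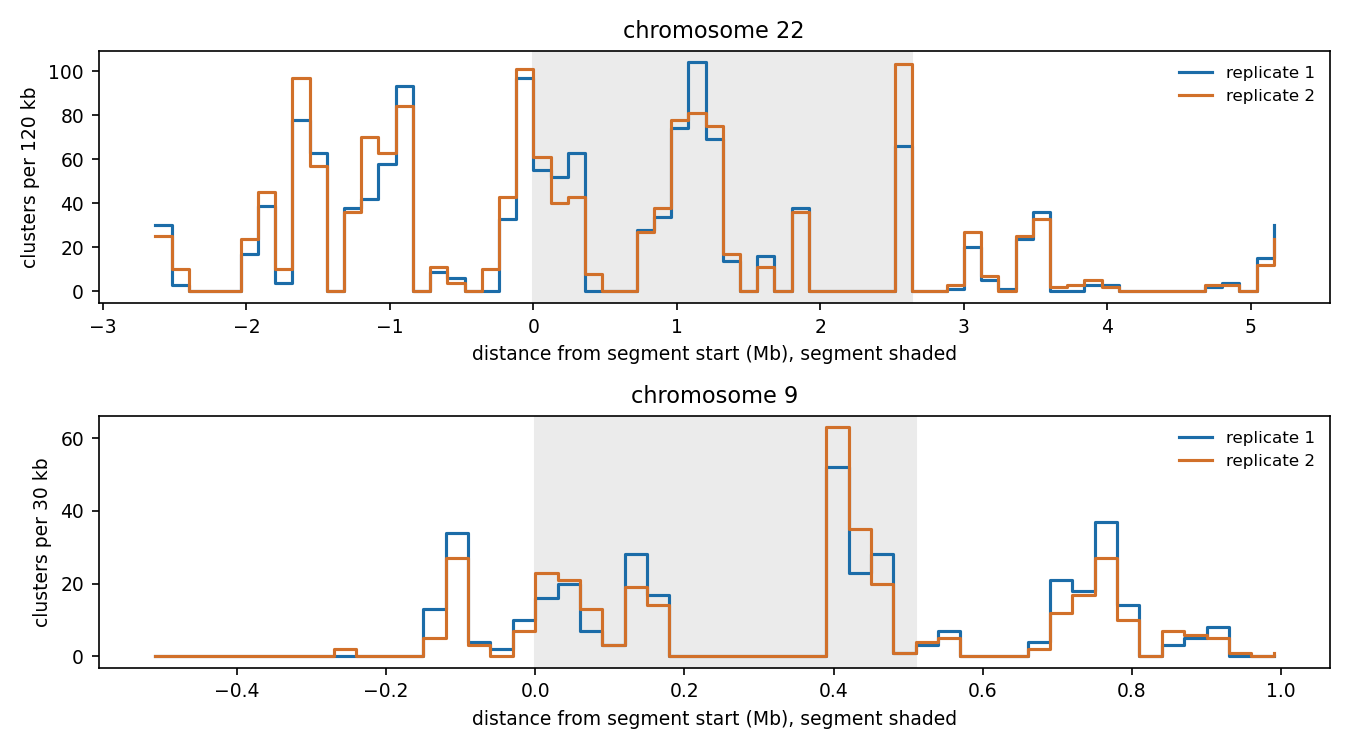
Clusters per 120 kb (chromosome 22) and per 30 kb (chromosome 9) in replicate 1 (blue) and replicate 2 (orange), by distance from the start of each segment in Mb; the segment is shaded and flanks of equal length are shown on both sides. Both replicates have dense and empty stretches in the same places, and the chromosome 22 segment is no denser than the flank before it.

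Over both segments, the density of clusters was 1.72 times that of flanks of equal length in replicate 1 (95% interval 1.57 to 1.90, from an exact Clopper-Pearson interval that covers counting error only) and 1.69 times in replicate 2 (1.54 to 1.86). The flanks differed widely. The chromosome 22 segment held 232.2 clusters per Mb in replicate 1, the flank before it 231.1 and the flank after it 54.5. In replicate 2 the values were 234.1, 261.4 and 56.4, so the flank before the segment was the denser one. The chromosome 9 segment held 382.4 clusters per Mb in replicate 1, against 123.5 and 235.3 in its flanks, and 415.7 in replicate 2, against 86.3 and 190.2. The excess on chromosome 22 therefore appeared only against the side beyond BCR, whereas the chromosome 9 segment exceeded both of its flanks in both replicates.

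Clusters of the segments were deeper than most. A replicate 2 cluster in them held a median of 9 reads, with the middle 50% between 5 and 20, against a median of 6 in the flanks and 5 over all intervals. Their clusters summed to 14063 reads, from 28 genes. The chromosome 9 segment had the highest reads per Mb, 9484, against 3495 in the chromosome 22 segment and 315 to 2873 in the flanks. All clusters of the chromosome 9 segment, 195 in replicate 1 and 212 in replicate 2, were on the + strand, and in replicate 2 they belonged to ABL1 and NUP214 alone. In RNA from bulk cells, more gene copies and more transcript per copy cannot be told apart.

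Close to 1 in 2 clusters of the segments was found in both replicates. Of the 808 replicate 1 clusters, 376 overlapped a replicate 2 cluster by at least 1 bp on the same strand, which is 46.5% (exact Clopper-Pearson 95% interval 43.1 to 50.0%), against 26.3% of all replicate 1 clusters. In the other direction 383 of 830 overlapped (46.1%, interval 42.7 to 49.6%), against 32.0% of all replicate 2 intervals. In the flanks the shares were 32.8% and 32.0%. Among replicate 2 clusters of the segments with at least 10 reads the share was 69.4%. The share at that minimum was not computed for the flanks or for all intervals, so 69.4% has no comparison here. Whether depth accounts for the higher shares of the segments was not tested.

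The enrichment of clusters over the input was lower in the segments by the median, but not by the share past the thresholds when set against the flanks. The median log2 fold of replicate 1 clusters was 0.92 (95% interval of the median 0.77 to 1.03), against 1.19 in the flanks and 1.51 over all clusters. A log2 fold below 0, meaning less signal than in the input, was found at 171 clusters (21.2%), against 11.4% of all clusters. A log2 fold of at least 3 with a −log10 p of at least 3 was reached by 38 clusters, or 4.70% (exact interval 3.35 to 6.40%), against 5.35% of all clusters and 3.42% of the 937 clusters of the flanks (2.35 to 4.79%). When only clusters backed by a replicate 2 cluster of at least 20 reads were taken, a choice made after the data were seen, the order of the medians changed. The median was then 1.43 over 169 clusters of the segments, 1.41 over 60 clusters of the flanks and 1.12 over 5395 clusters outside the segments. In the same clusters the share past both thresholds was 5.92% in the segments (interval 2.87 to 10.6%), 5.0% in the flanks (1.04 to 13.9%) and 11.5% outside the segments (10.7 to 12.4%).

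**Figure D2:**
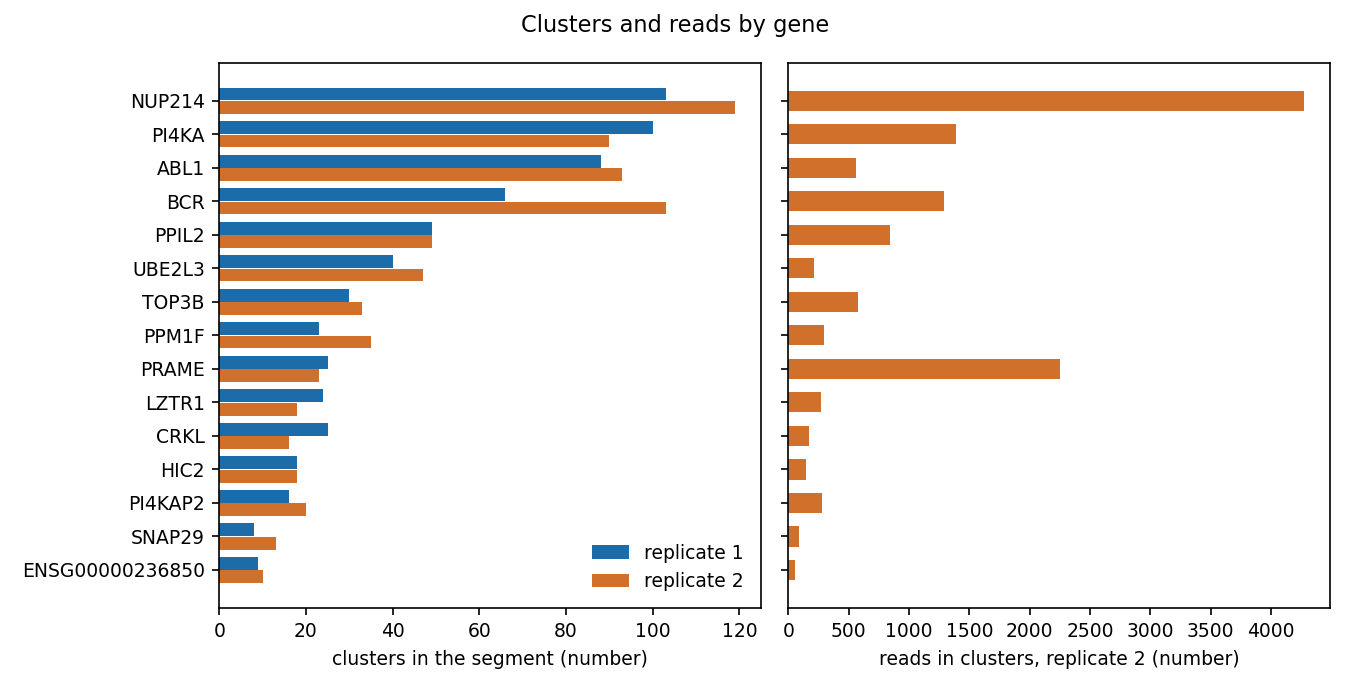
Number of clusters in replicate 1 (blue) and replicate 2 (orange) and reads in replicate 2 clusters for 15 genes with many clusters over both replicates. NUP214 with 4274 reads and PRAME with 2248 hold the most reads.

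Replicate 2 clusters named 28 genes, 17 of them with 10 or more clusters. Of the 808 replicate 1 clusters, 768 could be given to exactly 1 gene by the span of its replicate 2 clusters, and 40 could not. The genes are described below by their roles, and for each the spread over clusters is a spread along a transcript and not between replicates.

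BCR, which encodes a protein with GTPase-activating and kinase activities and supplies the first part of the fusion, held 66 clusters in replicate 1 and 103 in replicate 2. Its replicate 2 clusters, between 23523039 and 23632728, held 1288 reads, which placed it at rank 59 of 10872 genes. In replicate 1 the log2 folds ran from -1.23 to 3.65, with a median of 1.08, and 14 clusters were below 0. The low values lay near the start of the gene. Within 60 kb of the first cluster the median was -0.13 over 15 clusters (95% interval -0.55 to 1.19), with 9 below 0, and beyond it the median was 1.19 over 51 clusters (0.91 to 1.77), with 5 below 0. These splits of BCR, and those of ABL1, were chosen after the profiles were seen. In replicate 2 the first 60 kb held 47 clusters with 506 reads and a median of 5 reads a cluster, and the rest of the gene 56 clusters with 782 reads and a median of 9.5, although the highest BCR cluster, with 65 reads, lay in the first 60 kb. A single BCR cluster, at 23611108 to 23611163 with a log2 fold of 3.10, passed both thresholds in replicate 1, and no BCR interval was in the reproducible list.

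ABL1, a tyrosine kinase, was covered by many shallow clusters. It held 88 clusters in replicate 1 and 93 in replicate 2, where they summed to 563 reads with a median of 5 reads a cluster and a maximum of 16. In the first 120 kb from its first replicate 2 cluster the median log2 fold of replicate 1 was -0.81 over 46 clusters (95% interval -1.03 to -0.40). Of these 46, 37 were below 0. From there on the median was 0.82 over 42 clusters (0.65 to 1.19), with 3 below 0. The highest log2 fold in the first 120 kb was 0.60, so that no cluster there came near the threshold. In replicate 2 the same stretch held 61 clusters with a median of 4 reads, and the rest of the gene 32 clusters with a median of 7. A replicate 2 cluster overlapped 24 of the 88 replicate 1 clusters (27.3%), close to the 26.3% of all clusters. The single ABL1 cluster past both thresholds, at 133737887 to 133737943, had a log2 fold of 3.19.

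NUP214 had the most reads of any gene in the segments. Its 119 replicate 2 clusters held 4274 reads, rank 17 of all genes, with a median of 31 reads a cluster and a maximum of 106. The reads fell along the gene, counted from its first replicate 2 cluster. The first 20 kb held 3074 and the following windows of 20 kb 713, 291, 188 and 8. Replicate 1 had 103 clusters, 72 of which overlapped a replicate 2 cluster (69.9%). Their log2 folds had a median of 1.02, and the middle 50% lay between 0.51 and 1.62. A single NUP214 cluster, at 134009507 to 134009542, passed both thresholds with a log2 fold of 4.05. Among the 60 clusters with at least 20 replicate 2 reads behind them, 0 passed and the highest log2 fold was 1.97. A count of 0 of 60 allows a share of up to 5.0%, taken as 3 counts of the total and for counting error only.

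**Figure D3:**
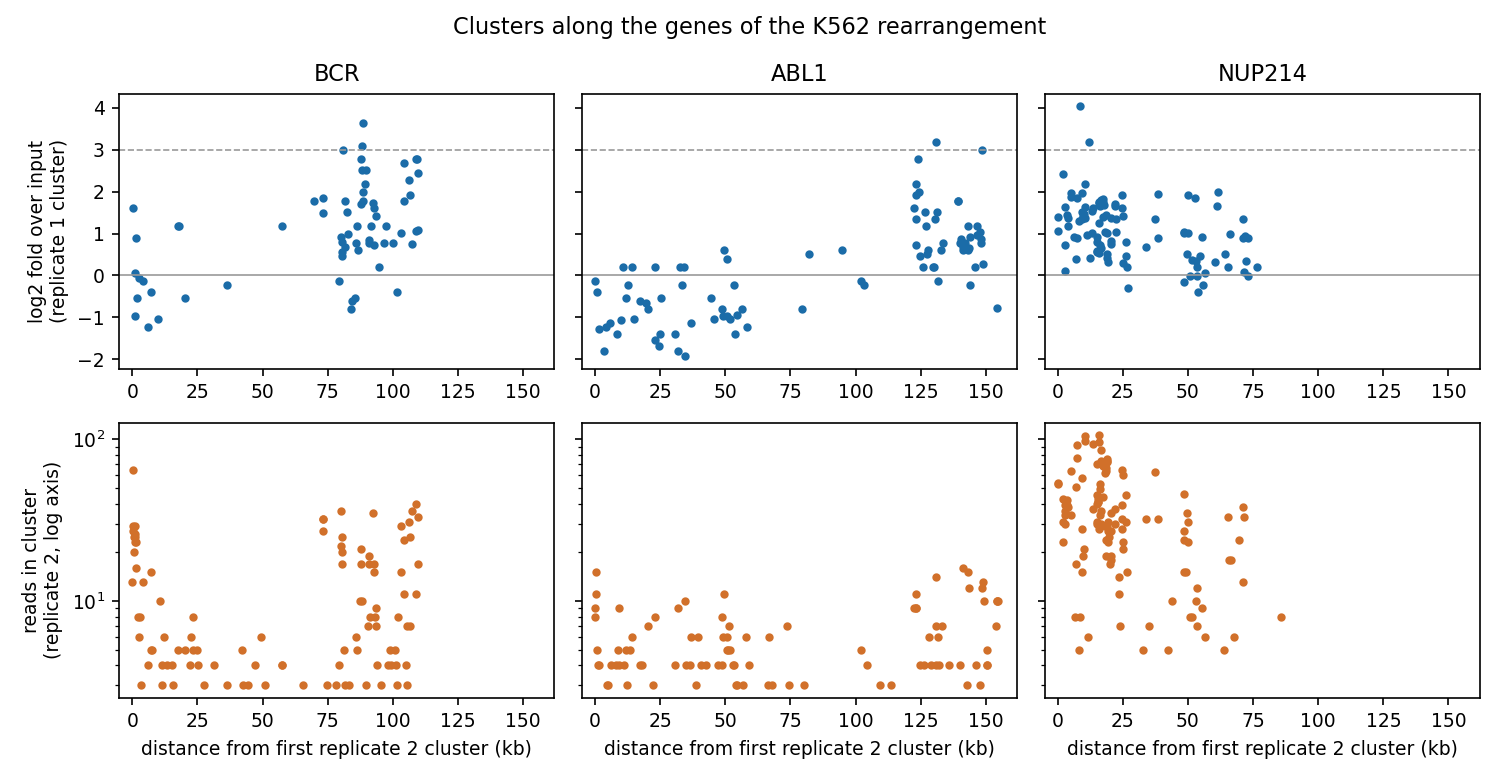
Replicate 1 log2 fold over the input (top) and replicate 2 reads per cluster (bottom, log axis) for clusters of BCR, ABL1 and NUP214, by distance in kb from the first replicate 2 cluster of each gene; the dashed line marks a log2 fold of 3 and the solid line 0. In ABL1 37 of the 46 clusters of the first 120 kb lie below 0, and in NUP214 reads are highest near the start.

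The genes of the rearrangement had signal in both replicates and few enriched clusters. Together BCR, ABL1 and NUP214 held 257 replicate 1 clusters, of which 3 passed both thresholds (1.17%, exact interval 0.24 to 3.37%), against 5.35% of all clusters. None of the 3 genes had a reproducible peak. Of the 89 genes of the whole series with at least 1000 replicate 2 reads, a minimum set after the data were seen, 35 had a reproducible peak (39.3%). The segments held 4 such genes, namely NUP214, PRAME, PI4KA and BCR, and PI4KA alone of them had one.

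The reproducible peaks of the segments lay in 3 genes, all on chromosome 22. PPIL2 and TOP3B held 8 peaks each and PI4KA 3. PPIL2 is a cyclophilin-type protein with a U-box that is found in spliceosomes, and TOP3B is a topoisomerase that can act on RNA as well as DNA. Their log2 folds over both replicates together ran from 3.04 to 4.72, with a median of 3.39, against 3.80 over all 866 peaks, and 3 of the 19 reached 4. These peaks were listed by the authors for their fold and p, so their height is a description.

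PPIL2 had 1 peak apart from the others. It lay at 22025132 to 22025211 on the + strand, with a log2 fold of 4.19 over both replicates and of 3.93 for the same interval in replicate 1, and its replicate 2 cluster held 73 reads, the most of any peak here. The other 7 peaks began 16.0 kb further on and fell within 8.31 kb, from 22041165 to 22049475. Among them the highest was the last, at 22049399 to 22049475, with a log2 fold of 4.17, and 3.55 in the overlapping replicate 1 cluster, with 44 reads in replicate 2. The lowest, at 22043441 to 22043512, had a log2 fold of 3.06 over both replicates and 3.12 in replicate 1, with 24 reads in replicate 2. Of the PPIL2 peaks, 5 were annotated at least in part to proximal introns and 3 to coding sequence. A 5′ splice site was also listed for 1 of the PPIL2 peaks and a 3′ splice site for 2. With the clusters under the peaks included, 12 of the 49 replicate 1 clusters of PPIL2 passed both thresholds (24.5%, exact interval 13.3 to 38.9%). Over all clusters the share was 5.35%. A log2 fold below 0 was found at 0 of the 49, against 11.4% of all clusters. The genes with peaks were known beforehand, so these shares are a description.

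TOP3B peaks spread over 12.5 kb on the − strand, from 22312176 to 22324690. The highest, at 22312176 to 22312197, had a log2 fold of 4.72 over both replicates, with 5.28 in the overlapping replicate 1 cluster and 12 reads in replicate 2, the fewest of any peak here. A further peak at 22321975 to 22322008 had a log2 fold of 3.72, with 3.77 in replicate 1 and 36 reads. An abutting pair, at 22319656 to 22319702 and 22319703 to 22319747, reached 3.17 and 3.04 on the log2 scale, against 3.36 and 3.33 for the same intervals of replicate 1. Of the TOP3B peaks, 5 were annotated at least in part to coding sequence and 3 to the 3′ UTR, and none to a proximal intron. A 5′ splice site was also listed for 1 of the TOP3B peaks and a 3′ splice site for 1. Over all 30 replicate 1 clusters of TOP3B the median log2 fold was 2.89 (95% interval of the median 2.51 to 3.14) and the lowest was 0.41. Both thresholds were passed by 10 of them (33.3%, exact interval 17.3 to 52.8%), clusters under the peaks included, against 5.35% of all clusters. A nearby pseudogene, TOP3BP1, held 1 replicate 2 cluster with 7 reads.

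**Figure D4:**
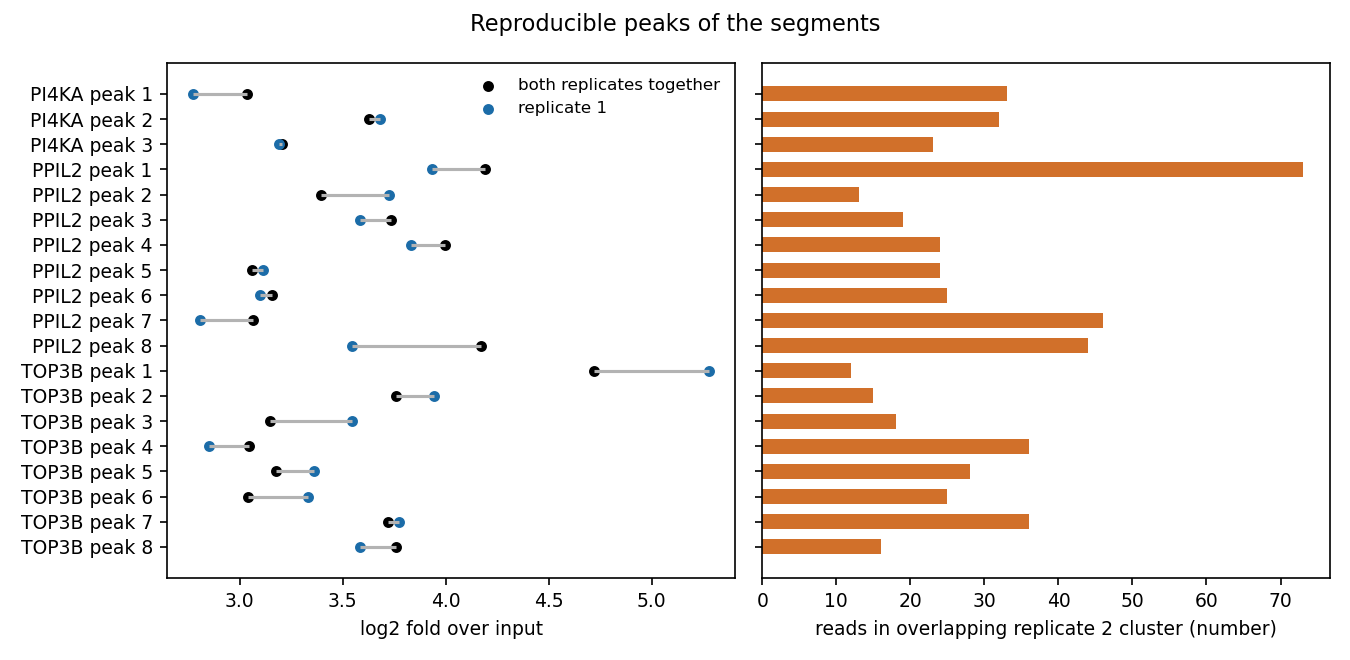
The 19 reproducible peaks in order of position within each gene; left, the joint log2 fold of both replicates (black) and for the replicate 1 cluster with the most overlap (blue), right, reads in the overlapping replicate 2 cluster. Replicate 1 lies above the joint value at 9 of the 19 peaks, and reads range from 12 to 73.

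Each of the 19 peaks overlapped 1 cluster in each replicate. The replicate 1 cluster had the same interval at 11 peaks, a higher log2 fold than the joint value at 9, and passed both thresholds itself at 16. The 3 that did not pass had log2 folds of 2.77 in PI4KA, 2.81 in PPIL2 and 2.85 in TOP3B. Peaks had a median of 25 reads in replicate 2, and many clusters of NUP214 without a peak had more.

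Among the signalling genes, PI4KA, a phosphatidylinositol 4-kinase, was the one with peaks. They lay at 21083599 to 21083633, 21119872 to 21119903 and 21159262 to 21159302 on the − strand, with log2 folds of 3.04, 3.63 and 3.20 over both replicates. The overlapping replicate 1 clusters had 2.77, 3.68 and 3.19, and those of replicate 2 held 33, 32 and 23 reads. All 3 were annotated at least in part to coding sequence, and 2 of them also to a 5′ splice site. Over the gene, 100 replicate 1 clusters had a median log2 fold of 1.60 and 90 replicate 2 clusters held 1394 reads. PI4KAP2, a pseudogene in the segment that resembles PI4KA, had 16 and 20 clusters with 278 reads and a median log2 fold of 1.88. How reads that fit both were assigned was not given in the sources used here, so the values of both are uncertain.

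CRKL, an adaptor that BCR-ABL1 is known to phosphorylate, had 25 and 16 clusters with 172 reads and a median log2 fold of 0.45. PPM1F, a serine and threonine phosphatase, had 23 and 35 clusters with 299 reads and a median of 0.19. In neither CRKL nor PPM1F did a replicate 1 cluster pass both thresholds, against 5.35% of all clusters. These counts of 0 allow shares of up to 12.0% and 13.0%, so they do not set either gene apart.

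LZTR1, a substrate adaptor of the cullin 3 ubiquitin ligase, had high folds in replicate 1 without a reproducible peak. Its 24 replicate 1 clusters had a median log2 fold of 2.25 (95% interval of the median 1.65 to 2.997). Of these, 4 passed both thresholds (16.7%), with log2 folds from 3.19 to 3.89, against 5.35% of all clusters. None of the 4 overlapped a replicate 2 cluster, where 9 of all 24 LZTR1 clusters did (37.5%), against 26.3% of all replicate 1 clusters. In replicate 2 LZTR1 held 18 clusters with 274 reads and a median of 13.5 reads a cluster. Both replicates therefore had signal in LZTR1, and 4 clusters are too few to read a difference in position from.

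PRAME, an antigen of many tumours, was the second gene of the segments by reads. Its 23 replicate 2 clusters held 2248 reads within 9.79 kb, with a median of 79 reads and a maximum of 297, the highest of any cluster in the segments. In replicate 1 its 25 clusters had a median log2 fold of 1.06 and ranged from -0.63 to 4.71. Both thresholds were passed by 2 of the 25 (8.0%, exact interval 0.98 to 26.0%), and this interval holds the 5.35% of all clusters. These clusters lay at 22892887 to 22892937 and 22893099 to 22893122. Their log2 folds were 4.71 and 4.26 and their −log10 p 24.9 and 17.1. Neither overlapped a replicate 2 cluster, whereas 16 of the 25 did (64.0%), against 26.3% of all replicate 1 clusters. Of the 16 PRAME clusters backed by at least 20 replicate 2 reads, 0 passed, which allows a share of up to 18.8%, and the highest log2 fold was 2.29.

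The remaining genes named by their number of clusters had low folds. UBE2L3, a ubiquitin-conjugating enzyme, held 40 and 47 clusters with 213 reads and a median log2 fold of 0.19, and 15 of the 40 were below 0. HIC2, a transcriptional repressor, held 18 clusters in each replicate with 144 reads and a median of 0.19. SNAP29, a SNARE protein of membrane fusion, held 8 and 13 clusters with 91 reads and a median of -0.35, and 6 of the 8 were below 0. ENSG00000236850, which had no symbol in the tables used, held 9 and 10 clusters with 57 reads and a median of 0.19. In these 4 genes no replicate 1 cluster passed both thresholds, against 5.35% of all clusters. Their counts of 0 allow up to 7.5% (UBE2L3), 16.7% (HIC2), 37.5% (SNAP29) and 33.3% (ENSG00000236850), so they do not set these genes apart. The median of 0.19 that UBE2L3, HIC2 and ENSG00000236850 share is a value that recurs at many clusters with a −log10 p near 0.

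**Figure D5:**
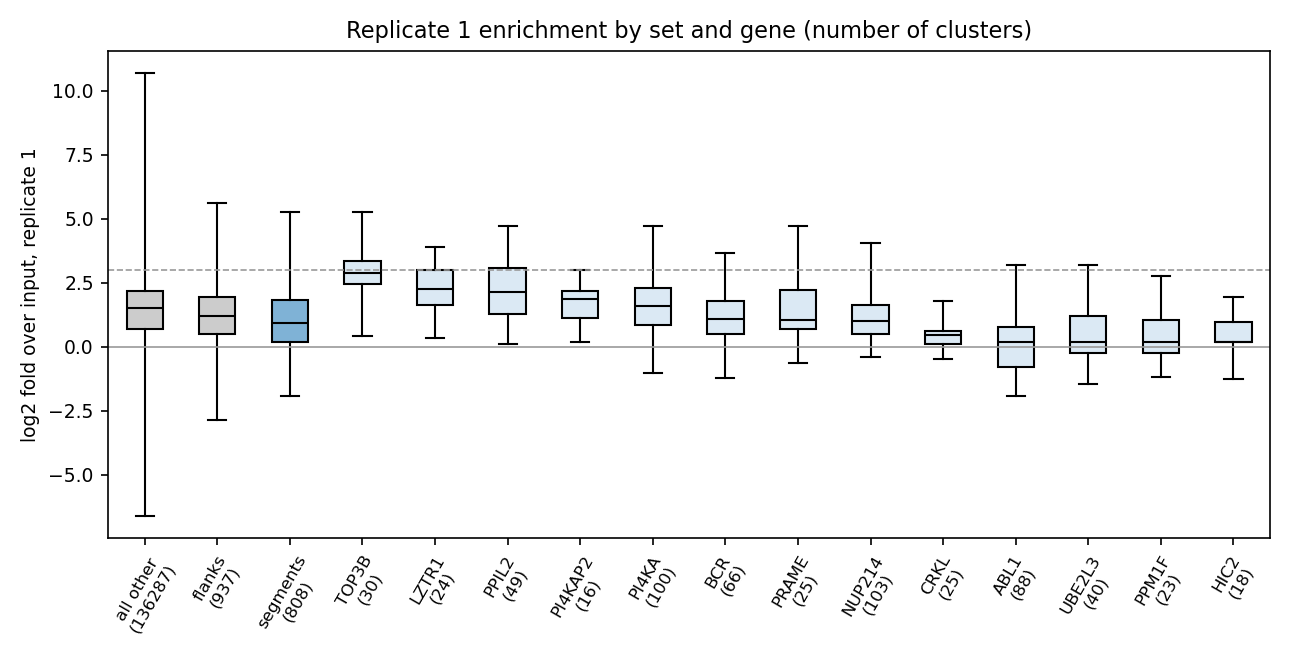
Replicate 1 log2 fold over the input for all clusters outside the segments, the flanks, the segments and single genes of the segments; boxes span the middle 50% with the median, whiskers reach the lowest and highest cluster, numbers of clusters are in parentheses and lines mark log2 folds of 0 and 3. TOP3B, LZTR1 and PPIL2 have medians of 2.89, 2.25 and 2.13, whereas ABL1, UBE2L3, PPM1F and HIC2 have 0.19. That value recurs at many clusters with a −log10 p near 0, so the equal medians are ties.

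By role, the clusters past both thresholds were unevenly spread. PPIL2 and TOP3B, the genes with links to RNA processing, held 79 replicate 1 clusters, and 22 passed (27.8%, exact interval 18.3 to 39.1%), against the 5.35% of all clusters. Of the signalling genes PI4KA, CRKL, PPM1F, LZTR1 and GNAZ, all but GNAZ had clusters, and 9 of their 172 replicate 1 clusters passed (5.23%, interval 2.42 to 9.70%). The ubiquitin and trafficking genes UBE2L3, SDF2L1 and SNAP29 had 54, and 0 passed, which allows up to 5.56%. With LZTR1 counted there rather than under signalling, 4 of 78 would pass, and 5 of the remaining 148 of the signalling genes. The transcription regulators HIC2 and THAP7 had 21, and 0 passed, which allows up to 14.3%. The other listed genes, PRAME among them, had 27, and 2 passed. PPIL2, TOP3B and PI4KA together accounted for 27 of the 38 clusters past the thresholds. PI4KA held 5 of these among its 100 replicate 1 clusters (5.0%, exact interval 1.64 to 11.3%), close to the 5.35% of all clusters. With at least 20 replicate 2 reads behind each cluster, PPIL2 and TOP3B still had 8 of 26 past both thresholds (30.8%, interval 14.3 to 51.8%), whereas BCR, ABL1 and NUP214 had 0 of 79, which allows up to 3.80%, against 11.3% of all clusters with such reads. Since the 3 genes with peaks were known beforehand, these shares are a description.

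Several genes listed for the segments had no replicate 2 cluster of their name. They were GNAZ, AIF1L, YPEL1, SERPIND1, AIFM3, SLC7A4, RAB36, RSPH14, IGLL5, QRFP, FIBCD1 and LAMC3. ZNF280B could not be placed by symbol. Stretches without any cluster are seen in both replicates in the plot of clusters by distance.

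Genes beyond the limits of the segments gave a point of reference. On chromosome 22 before the segment, DGCR8, a partner of DROSHA in microRNA processing, had 24 replicate 2 clusters with 1163 reads and 4 reproducible peaks, and a median log2 fold of 1.89 in replicate 1. MED15, a Mediator subunit, had 74 clusters with 639 reads and no peak, with a median of 1.19. On chromosome 9 before the segment, FUBP3, a single-stranded nucleic acid binding protein, had 35 clusters with 186 reads and a median of 1.60, and 0 of its 49 replicate 1 clusters passed. The median log2 folds of DGCR8, MED15 and FUBP3 thus lay above those of ABL1, BCR and NUP214, and below that of TOP3B.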

How the data were processed

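RBM17 eCLIP was analysed in 2 replicates of K562 cells, compared by the authors with 1 input. Per the labels and the study's methods, reads were processed with cutadapt, STAR and the eCLIP pipeline v0.4.0. For replicate 1 clusters and for reproducible peaks, the deposited values are a log2 fold relative to the input and its −log10 p, given for peaks as 1 value over both replicates. For replicate 2 clusters the deposited p-value is that of the cluster caller (at most 0.05), and the name holds a gene and a read count. Positions reach 249211903 on chromosome 1, beyond its hg38 length, and were read as hg19, with 1-based starts. Replicates are numbered as in the sample descriptions, not as in the titles.

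Overlaps used bedtools 2.31.1 (1 bp, same strand), and figures matplotlib 3.10.9. Other steps used scipy 1.17.1, numpy 2.4.6 and pandas 2.3.3 in Python 3.11.15, and were tested on simulated data. Intervals listed for several genes were counted once outside the gene values. Symbols came from GENCODE and RefSeq tables (3 of 28 identifiers had none), and regions of peaks from the study's peak table. No test was made, since the 2 libraries are 1 group and clusters of a library are not replicates. Intervals are 95%, exact for shares and by order statistics for medians, and cover counting error only; the limit that a count of 0 allows is 3 counts of the total.

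Members, gene groups and splits were chosen with earlier results of these data known. Named genes were those with a reproducible peak, BCR, ABL1 and NUP214, and the 10 others with the most clusters, of which 1 is not reported here (counts over the segments include it, those of its role group do not); SDF2L1, THAP7, EXOSC2, SMPD4P1, TOP3BP1, XKR3 and the comparators were added. Alternatives were other thresholds, overlaps and strands, merged intervals, single segments, and leaving out the immunoglobulin lambda locus (chr22:22380000-23265000) or replicate 2. Sequence of the clusters was not used here, since the reference genome is hg38.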

Additional observations from a re-analysis of the deposited data

How the results depend on the processing

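No paired analysis was possible because the input has no file here and no result comes from a test. Of 31 alternatives, 13 stayed within the interval of the value reported (within 1.5 times for the peaks) and 18 moved beyond it. A change of sign was looked for only in the 5 alternatives of the median log2 fold, and none of them had one. Values without a single gene are not given. Merging abutting intervals left the share past the thresholds, the median and both density ratios within their intervals and gave 18 peaks in place of 19. The share of replicate 1 clusters past both thresholds was 1.11% at a log2 fold of at least 4 and 1.03% on chromosome 9 alone. The median log2 fold was 1.07 on chromosome 22, 0.69 on chromosome 9 and 1.43 for clusters with 20 or more replicate 2 reads. With 50% of a cluster covered, 38.5% of replicate 1 and 39.2% of replicate 2 clusters were shared, and with replicate 2 clusters of at least 10 reads 33.3% and 69.4%. The density ratio to the flanks in replicates 1 and 2 was 2.13 and 3.01 on chromosome 9. Without the immunoglobulin lambda locus it was 2.24 and 2.22, and in replicate 2 it was 1.47 on chromosome 22. Against the rest of the same chromosomes up to their last cluster, the ratios were 6.49 and 7.54. That rest pools both chromosomes from their first base, unmasked and not weighted by chromosome, so it is not matched to the segments as the flanks are. Reproducible peaks fell from 19 to 3 at a log2 fold of at least 4, and replicate 1 alone, without replicate 2, gave 38 clusters. Stricter limits and subsets change these values by construction, and other causes were not tested. Replicate 1 depth is unknown, so its folds cannot be weighted by reads.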
